A study of Mus musculus with 8 samples.

Results

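The non-mu glutathione S-transferases are the members of this enzyme superfamily that lie outside the mu class, to which the knocked-down gene of the study, Gstm1, belongs. They were found by gene symbol, and 10 of the 54146 genes in the deposited tables were members: Gsta4, Gsto1, Gstp1, Gstt1, Gstt2, Gstt3, Gstk1, Gstz1, Mgst1 and Mgst3. Transcripts were sequenced in 8 libraries from primary cortical astrocytes of early postnatal C57BL/6 mice, and the question was how their transcript levels behaved when GSTM1 was reduced. The 4 groups of 2 libraries were control KD astrocytes, which carried a lentiviral non-silencing shRNA, and GSTM1 KD astrocytes, which carried a Gstm1 shRNA, each unstimulated (basal) and each exposed to TNF-α at 50 ng/ml for 6 h. Cells of every group had therefore been infected, selected with puromycin, shaken and depleted of CD11b-positive microglia. The study calls the replicates biological without saying which libraries share a culture, so p-values measure the spread between these libraries only.

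Glutathione S-transferases join the tripeptide glutathione to reactive, electrophilic molecules, which makes them soluble and ready for export. The cytosolic enzymes are sorted into classes named after Greek letters, alpha (Gsta), mu (Gstm), pi (Gstp), theta (Gstt), omega (Gsto) and zeta (Gstz), a kappa enzyme (Gstk1) sits in mitochondria and peroxisomes, and the microsomal enzymes (Mgst) are unrelated membrane proteins of the MAPEG family. Astrocytes are the main source of glutathione for neighbouring neurons, and several of these enzymes are regulated through the antioxidant response element, the site bound by the transcription factor NRF2.

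Promoter windows are shown for 3 members, because Gsto1 was the member that fell in GSTM1 KD, Gstt3 was 1 of those that rose and Gstp1 was by far the most abundant. RefSeq (GRCm38.p6) gave windows of 300 bases, 250 before and 50 after the start of transcription, for 8 of the 10 members and 11 starts, and none for Gsta4 and Gstt2. The windows lie at chr19:47854723-47855022 on the plus strand for Gsto1, at chr10:75781373-75781672 on the minus strand for Gstt3 and at chr19:4037863-4038162 on the minus strand for Gstp1. They are printed 5′ to 3′ on the strand of the gene, with matches to the core of the antioxidant response element (TGACNNNGC or TGAGNNNGC) and to the GC box core (GGGCGG), on either strand, in capitals.
Gsto1: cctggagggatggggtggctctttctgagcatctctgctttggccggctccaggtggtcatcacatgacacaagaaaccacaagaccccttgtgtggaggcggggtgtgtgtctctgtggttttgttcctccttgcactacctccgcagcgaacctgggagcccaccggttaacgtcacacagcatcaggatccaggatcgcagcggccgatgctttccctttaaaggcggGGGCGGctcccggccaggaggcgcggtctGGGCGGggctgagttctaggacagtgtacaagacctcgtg
Gstt3: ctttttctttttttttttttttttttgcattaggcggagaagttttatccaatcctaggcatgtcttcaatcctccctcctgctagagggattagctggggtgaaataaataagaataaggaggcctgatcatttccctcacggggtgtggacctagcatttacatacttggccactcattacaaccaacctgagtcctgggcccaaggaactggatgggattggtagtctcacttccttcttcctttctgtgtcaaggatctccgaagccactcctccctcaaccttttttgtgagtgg
Gstp1: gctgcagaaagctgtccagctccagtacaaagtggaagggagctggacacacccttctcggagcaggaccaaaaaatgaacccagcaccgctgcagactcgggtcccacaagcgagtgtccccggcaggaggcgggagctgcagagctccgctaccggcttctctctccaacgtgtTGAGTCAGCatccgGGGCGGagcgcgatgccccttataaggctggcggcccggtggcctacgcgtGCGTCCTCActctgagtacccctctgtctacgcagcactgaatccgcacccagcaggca
The Gstp1 window held 2 matches to the antioxidant response element core, at bases 177 to 185 and 242 to 250 counted from 1 at the 5′ end, and a GC box core at bases 191 to 196. The Gsto1 window held only GC box cores, at bases 232 to 237 and 261 to 266, and the Gstt3 window held neither motif. Over the 11 windows, the antioxidant response element core was present in 5 windows of 4 members (Gstp1, Gstt1, Gstz1 and Mgst1), against 27.8% of all 32851 mouse windows of this length, and the GC box core in 7 windows, against 35.7% of all. No window of a member held the TATA box core (TATAAA, 13.6% of all windows) or the kappa B site bound by NF-κB (8.46% of all windows), and matches to different motifs did not overlap. A match is a description of letters and a missing match says nothing about the factor.

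The members lie on 6 chromosomes (GRCm38). Gsta4 (ENSMUSG00000032348.6) spans chr9:78182774-78209349 on the plus strand, Gsto1 (ENSMUSG00000025068.7) chr19:47854970-47864790 on the plus strand and Gstp1 (ENSMUSG00000060803.5) chr19:4035407-4037985 on the minus strand. The theta members lie near each other on the minus strand of chromosome 10, Gstt3 (ENSMUSG00000001665.11) at chr10:75774115-75781414, Gstt1 (ENSMUSG00000001663.10) at chr10:75783813-75798584 and Gstt2 (ENSMUSG00000033318.7) at chr10:75831114-75837424. Gstt4, which is not a member, lies between Gstt1 and Gstt2. Gstk1 (ENSMUSG00000029864.7) spans chr6:42245935-42250447, Mgst1 (ENSMUSG00000008540.11) chr6:138140316-138156755 and Gstz1 (ENSMUSG00000021033.11) chr12:87147165-87164723, all on the plus strand, and Mgst3 (ENSMUSG00000026688.5) chr1:167371966-167393841 on the minus strand. Sequence sharing differed between them. Of the distinct 50-base runs in the GENCODE vM21 transcripts, 33.7% of those of Gstp1 also occurred in Gstp2, whose estimated count was 0 to 5 per library, and 12.5% of those of Gstt3 and 9.39% of those of Gstz1 occurred in other genes. The shared runs of Gstt3 came mostly from Gm20441 on the same strand, which was not analysed here, and those of Gstz1 mostly from Pomt2 on the opposite strand, so the levels of these members are uncertain to that extent. Gsta4, Gsto1, Gstt1, Gstk1, Mgst1 and Mgst3 shared no run of 50 bases with any other gene. The longest exact run that a member shared with any Gstm1 transcript, on either strand, was 10 to 13 bases, whereas it was 16 to 112 bases for Gstm2 to Gstm7.

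The libraries held 17349682 to 34434615 estimated fragments, and 19371 to 21557 genes had a count. Gstm1, the targeted gene, was listed at 8153 and 9644 counts in control KD against 676 and 626 in GSTM1 KD without TNF-α, and at 4851 and 6492 against 527 and 405 with TNF-α, as the labels say. Astrocyte markers were abundant in every library, but their summed level differed between replicates: 3012 and 6868 CPM (counts scaled to a common library total with TMM factors) in control KD against 6070 and 9053 in GSTM1 KD without TNF-α, with nearly the same values with TNF-α (3087, 6965, 6232 and 8871). Gfap made up 49.5% of this sum, and control KD replicate 1 was the lowest in both states. The summed level of 8 fibroblast and mural cell markers, 87.7% of it Acta2, was higher in control KD (3014 to 3897 CPM) than in GSTM1 KD (1647 to 2061 CPM), whereas Pdgfrb and Rgs5 of the same list were higher in GSTM1 KD in the mean of both states. The microglial markers Aif1, Cx3cr1 and P2ry12 had at most 0.32 CPM and Itgam at most 1.73 CPM. Oligodendrocyte precursor markers, mainly Olig1, summed to 574 to 739 CPM in control KD and 463 to 532 CPM in GSTM1 KD.

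In TPM, which are scaled for transcript length so that genes can be compared, the members covered a wide range of levels. Gstp1, the pi class enzyme, had a mean of 413 TPM over the 8 libraries and ranged only from 400.2 to 436 TPM, above every other member in every library. It ranked 385th among the 26534 genes with any TPM. Gsta4, the alpha class enzyme that acts on the lipid peroxidation product 4-hydroxynonenal, followed at 172 TPM (range 112 to 217) and Mgst1, a microsomal enzyme that also reduces lipid hydroperoxides, at 134 TPM (range 116 to 178). These ranges overlapped. Gsto1 (48.3 TPM, range 27.2 to 81.0), the omega class enzyme with thiol transferase and dehydroascorbate reductase activity, overlapped with Gstz1 (41.3 TPM, range 38.8 to 44.3), which isomerises maleylacetoacetate in tyrosine breakdown. Mgst3, the other microsomal enzyme, stood alone at 25.2 TPM (range 21.2 to 29.0). Gstk1, Gstt1 and Gstt3 could not be ordered, with means of 7.77, 7.59 and 7.40 TPM and overlapping ranges. Gstt2 was near the limit of detection, with 13 and 6 counts in control KD against 6 and 1 in GSTM1 KD without TNF-α and 12 and 4 against 8 and 0 with TNF-α. It failed the filter on low counts in every comparison, so it was the 1 member without a test, and its level is not read further.

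**Figure D1:**
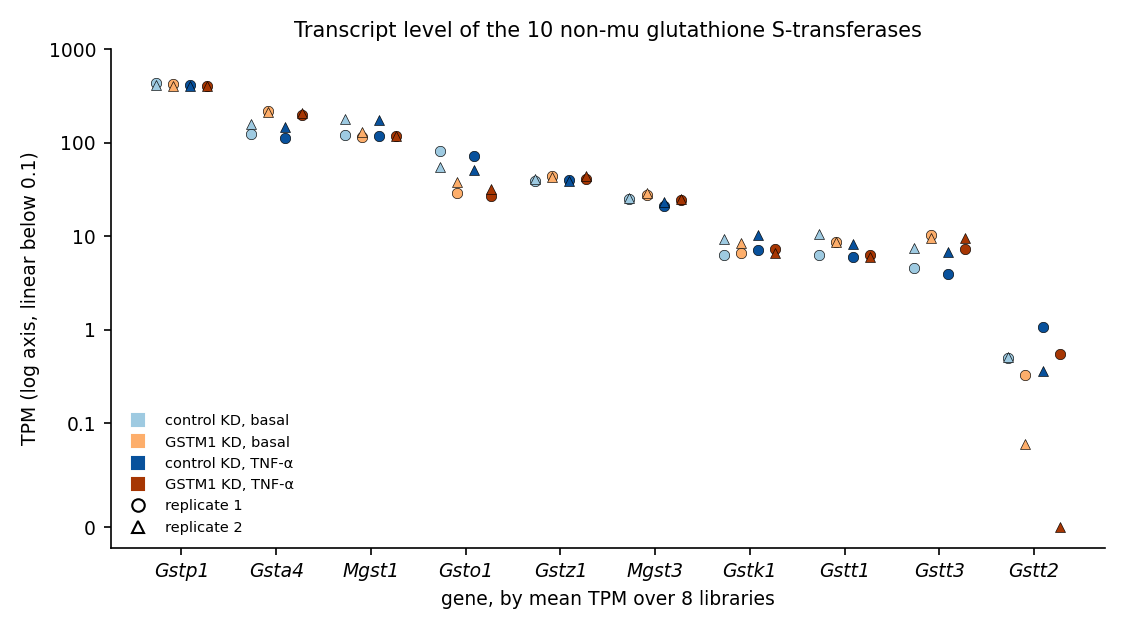
Deposited TPM of the 10 members in each of the 8 libraries, on a log axis that is linear below 0.1; colours mark the groups and symbols the replicates, and genes are ordered by their mean. Gstp1 lay between 400.2 and 436 TPM in every library, whereas Gsto1 ran from 27.2 to 81.0 TPM with the control KD libraries above the GSTM1 KD libraries.

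The order of the members changed in 3 places with the knockdown. By group mean, Mgst1 was the second and Gsta4 the third in control KD, and Gsta4 was the second and Mgst1 the third in GSTM1 KD, in both states. The exception by library was control KD replicate 1 without TNF-α, where Gsta4 (125 TPM) already stood above Mgst1 (121 TPM). Gsto1 and Gstz1 exchanged the fourth and the fifth place in the same way. Gstt3 was the ninth in control KD and the seventh in GSTM1 KD. Most of these changes lay within the overlaps of the ranges given above, and the order was a description without a test.

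Summed over the 10 members, the non-mu transcript level was similar in all libraries, at 845 and 900 TPM in control KD and 887 and 888 TPM in GSTM1 KD without TNF-α, and 796 and 865 against 828 and 850 TPM with TNF-α. The groups overlapped in both states. The 7 mu class genes together gave 473 and 728 TPM in control KD against 186 and 201 TPM in GSTM1 KD without TNF-α, and 426 and 748 against 172 and 185 TPM with TNF-α. The non-mu members therefore made up 64.1% and 55.3% of all transcripts of the 17 genes in control KD against 82.7% and 81.5% in GSTM1 KD without TNF-α, and 65.1% and 53.6% against 82.8% and 82.1% with TNF-α. Gstm1 was the larger part of the mu class sum in control KD and the smaller part in GSTM1 KD. Within the non-mu sum, Gstp1 made up 45.6% to 52.1% in every library, and Gstp1, Gsta4, Mgst1 and Gsto1 together 88.8% to 90.3%. The share of Gsta4 was 14.1% to 17.7% in control KD libraries and 23.7% to 24.4% in GSTM1 KD libraries, and that of Gsto1 5.95% to 9.58% against 3.23% to 4.33%.

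**Figure D2:**
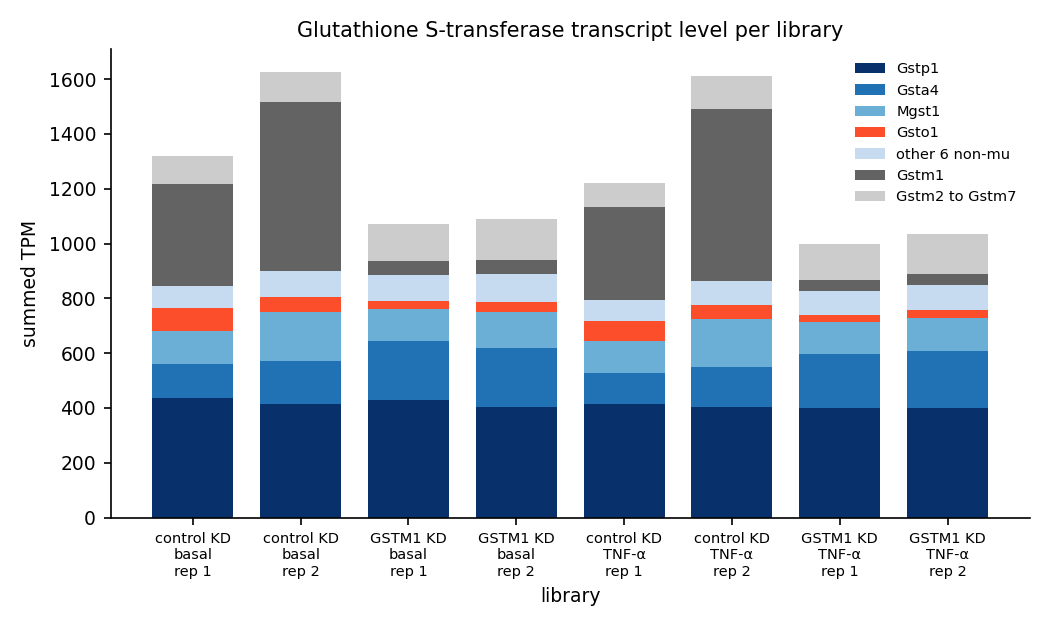
Summed TPM of the glutathione S-transferases in each library, stacked by gene, with bars from 0; 4 members are drawn singly, the other 6 non-mu members together, and the mu class as Gstm1 and as Gstm2 to Gstm7. The non-mu part of the bars ended between 796 and 900 TPM in all 8 libraries, and the bars differed in height mainly in the mu class part.

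GSTM1 KD was compared with control KD in each state by the quasi-likelihood F-test of edgeR with Benjamini-Hochberg adjustment over all genes tested. Gsto1 stood at 0.467 and 0.454 of the control KD level in GSTM1 KD and Gsta4 was higher by about 1.5-fold, each with similar sizes in both states, and the abundant Gstp1 differed little. At the basal level 0 of the 9 tested members passed the threshold of 0.05, against 10.2% of the 14899 genes tested. An unadjusted p under 0.05 was found for 3 members (Gsto1, Gsta4 and Gstt3), against 4712 of the 14899 genes. DESeq2 called Gsto1 and Gsta4 (2 of 9 members, against 17.9% of genes). An alternative fit with the replicate number as a block, given in the last section, called 4 of 9 members (Gsta4, Gsto1, Gstt3 and Mgst1), against 4712 of 14899 genes. After TNF-α stimulation 2 of 9 members passed, Gsta4 higher and Gsto1 lower, against 16.2% of 14593 genes, and DESeq2 called the same 2 (20.6% of genes). In the mean of both states, fitted on all 8 libraries, 3 of 9 members passed, Gsta4 and Gstt3 higher and Gsto1 lower, against 39.8% of 15332 genes. The counts of members lie near these shares of all genes. The mean uses the libraries of both states again, and it is no independent test. The deviations of replicate 1 from replicate 2 ran together across states within a knockdown (correlation over genes 0.790 in control KD against 0.601 in GSTM1 KD). Its fit nevertheless takes the 8 libraries as independent. If libraries of the 2 states share a culture, its adjusted p-values are too small and overstate the evidence. The median log2 fold change over the members was -0.10, -0.09 and -0.08 in these comparisons, and that over all tested genes -0.0020, -0.01 and 0.0082. By CPM the groups did not overlap for 5 of 9 members without TNF-α (63.5% of all genes), 6 of 9 with TNF-α (66.6%) and 3 of 9 with the states together (38%).

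**Figure D3:**
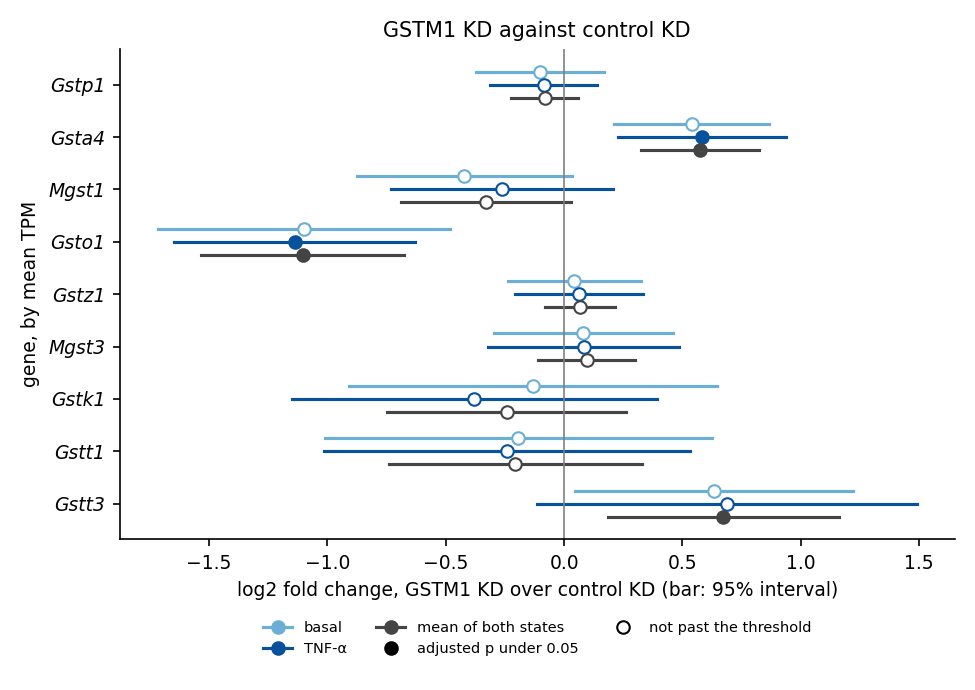
Log2 fold change of the 9 tested members, GSTM1 KD over control KD, with 95% intervals from the edgeR fit, without TNF-α, after TNF-α and in the mean of both states; filled points passed the adjusted threshold. Gsto1 lay near -1.1 and Gsta4 near 0.57 throughout, and the intervals of the other members included 0, except for Gstt3 without TNF-α and in the mean of both states.

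Gsto1, of the omega class, reduces dehydroascorbate and removes glutathione from protein thiols. It had 1601 and 770 counts (45.3 and 30.1 CPM) in control KD against 351 and 404 counts (15.1 and 20.2 CPM) in GSTM1 KD without TNF-α, and 943 and 480 counts (40.6 and 28.9 CPM) against 323 and 302 counts (14.9 and 17.4 CPM) with TNF-α. Every GSTM1 KD library lay below every control KD library, and control KD replicate 1 was the highest in both states. The log2 fold change was -1.10 (standard error, SE, 0.25, 95% interval -1.72 to -0.48, adjusted p = 0.05004, just over the threshold) without TNF-α and -1.14 (SE 0.20, interval -1.65 to -0.63, adjusted p = 0.0255) with TNF-α. In the mean of both states Gsto1 stood at 0.465 of the control KD level (log2 fold change -1.10, SE 0.18, adjusted p = 0.0040). Leaving out 1 library at a time, the log2 fold change ran from -1.37 to -0.78 without TNF-α and from -1.36 to -0.86 with TNF-α. In unstimulated cells Gsto1 passed without control KD replicate 1 (adjusted p = 0.0440) or replicate 2 (adjusted p = 0.00064), in fits that called 2185 and 5256 genes in all, and not without GSTM1 KD replicate 1 (adjusted p = 0.206) or replicate 2 (adjusted p = 0.168), in fits that called 1 and 3 genes. With TNF-α it no longer passed without GSTM1 KD replicate 1 (-1.02, adjusted p = 0.130) or replicate 2 (-1.24, adjusted p = 0.120), in fits that called 0 and 94 genes. The calls gained and lost thus moved with those of all genes and say nothing particular about Gsto1. The fibroblast and mural cell markers Acta2 and Col1a2 and the oligodendrocyte precursor marker Olig2 were also lower in GSTM1 KD in both states. Pdgfrb of the fibroblast and mural cell list was higher in GSTM1 KD with TNF-α. The summed fibroblast and mural cell level given above was higher in all control KD libraries. Endothelial cell markers, 68.4% of their sum Flt1, summed to 18.7 and 17.5 CPM in control KD against 9.14 and 12.2 CPM in GSTM1 KD without TNF-α, and 20.2 and 25.5 against 12.7 and 17.6 CPM with TNF-α. None of the 3 tested passed in a single state, and in the mean of both states Cdh5 (-1.52, adjusted p = 0.0272) and Flt1 (-0.82, adjusted p = 0.0363) were lower and Kdr higher. The microglial marker Itgam was also lower in the mean of both states (-2.95, adjusted p = 0.0402), the 1 of 7 tested markers of its list that passed. The part of these markers in the Gsto1 result was not tested, and in whole cultures fewer cells of a type and less RNA per cell cannot be told apart. Gsto1 overlaps Cfap43 on the opposite strand without sharing an exonic base, and Cfap43 had 35.3 and 30.4 CPM in control KD against 34.0 and 29.8 CPM in GSTM1 KD without TNF-α. The paralog Gsto2, which starts 744 bases beyond Gsto1, had a log2 fold change of -0.14 (SE 0.32, adjusted p = 0.798) without TNF-α and 0.11 (SE 0.35, adjusted p = 0.846) with TNF-α.

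Gsta4, of the alpha class, joins glutathione to 4-hydroxynonenal. It had 55.1 and 68.4 CPM in control KD against 90.5 and 88.8 CPM in GSTM1 KD without TNF-α, and 49.1 and 64.3 CPM against 84.5 and 88.0 CPM with TNF-α. All GSTM1 KD libraries lay above all control KD libraries, the GSTM1 KD replicates lay close together, and control KD replicate 1 was the lowest in both states. The log2 fold change was 0.54 (SE 0.13, interval 0.21 to 0.86, adjusted p = 0.0589) without TNF-α and 0.58 (SE 0.14, interval 0.23 to 0.94, adjusted p = 0.0479) with TNF-α, and 0.57 (SE 0.11, adjusted p = 0.0060) in the mean of both states. After TNF-α stimulation Gsta4 no longer passed in the same fits without GSTM1 KD replicate 1 (0.62, adjusted p = 0.179) or replicate 2 (0.56, adjusted p = 0.264), which called 0 and 94 genes in all, and with offsets for effective length it fell just short (0.59, adjusted p = 0.0522). In unstimulated cells it passed without control KD replicate 1 (0.39, adjusted p = 0.043) or replicate 2 (0.69, adjusted p = 0.0013), and not without GSTM1 KD replicate 1 (0.52, adjusted p = 0.267) or replicate 2 (0.54, adjusted p = 0.352), in the fits whose counts over all genes are given for Gsto1. The summed astrocyte markers given above were also lowest in control KD replicate 1 of both states, and the median log2 fold change of the 10 markers was 0.39 without TNF-α and 0.28 with TNF-α. Gfap (1.10, adjusted p = 0.234, and 1.08, adjusted p = 0.218) and Aldh1l1 (1.05, adjusted p = 0.187, and 1.22, adjusted p = 0.102) had positive values that did not pass. The marker that passed in a single state was S100b, which was lower in GSTM1 KD (-1.44, adjusted p = 0.0269, and -1.71, adjusted p = 0.0387). Fgfr3 was higher in the mean of both states (0.61, adjusted p = 0.0465). Folr1, the 1 choroid plexus marker of 5 that could be tested, was higher in GSTM1 KD in both states (2.67, adjusted p = 0.0476, and 2.78, adjusted p = 0.0330), at a summed level of that list of 0.258 to 0.722 CPM in control KD against 1.80 to 3.51 CPM in GSTM1 KD. Of 4 tested ependymal cell markers, Pifo was higher with TNF-α (1.18, adjusted p = 0.0498), and Pifo, Ccdc153 and Rsph1 were higher in the mean of both states (1.18, 3.20 and 0.55, adjusted p = 0.0108, 0.0137 and 0.0423), whereas Foxj1, 88.5% of that list's sum, did not pass (0.17). The ependymal sum overlapped between the groups without TNF-α (115 and 176 CPM against 148 and 160 CPM) and not with TNF-α (100.3 and 120 CPM against 136 and 148 CPM). The part of these markers in the results for Gsta4 and for Gstt3 was not tested.

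The theta class enzymes act on small halogenated and sulfur compounds. Gstt3 had 148 and 146 counts (4.19 and 5.71 CPM) in control KD against 177 and 154 counts (7.60 and 7.71 CPM) in GSTM1 KD without TNF-α, and 73 and 94 counts (3.145 and 5.66 CPM) against 150 and 128 counts (6.93 and 7.36 CPM) with TNF-α. The groups did not overlap, and control KD replicate 1 was again the lowest. Of the reported fits, Gstt3 passed in that of the mean of both states, where the log2 fold change was 0.67 (SE 0.21, interval 0.19 to 1.16, adjusted p = 0.0377). That fit takes the 8 libraries as independent, with the limit given above. With the replicate number as a block Gstt3 also passed without TNF-α (0.65, adjusted p = 0.0490), and not with TNF-α (0.73, adjusted p = 0.0853). In the reported fits of the single states the log2 fold change was 0.63 (SE 0.24, adjusted p = 0.137) and 0.69 (SE 0.32, adjusted p = 0.185). Both values moved with the control KD library used: without control KD replicate 1 they were 0.42 (adjusted p = 0.256) and 0.32 (adjusted p = 0.422), and without control KD replicate 2 they were 0.86 (adjusted p = 0.0247) and 1.16 (adjusted p = 0.0160), both past the threshold. The call in the mean of both states was lost when control KD replicate 1 of either state or any GSTM1 KD library was left out (adjusted p = 0.0777 to 0.114), and with offsets for effective length (adjusted p = 0.0700), and it was kept without control KD replicate 2 of either state. Gstt1 had 2.998 and 4.93 CPM in control KD against 3.73 and 3.16 CPM in GSTM1 KD without TNF-α, and 2.67 and 3.97 CPM against 2.91 and 2.76 CPM with TNF-α. The GSTM1 KD libraries of Gstt1 thus lay between the control KD replicates. Its log2 fold change in the mean of both states was -0.21 (interval -0.74 to 0.33), which leaves a change of either direction possible at counts of 48 to 126 per library. The difference between Gstt1 and Gstt3 was not tested.

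Gstp1, the pi class enzyme, conjugates many drugs and electrophiles and binds the kinase JNK. Its counts were 4813 and 3201 in control KD against 2944 and 2339 in GSTM1 KD without TNF-α, and 2969 and 2060 against 2616 and 2098 with TNF-α, which correspond to 136 and 125 against 126 and 117 CPM and to 128 and 124 against 121 and 121 CPM. The libraries of a state thus lay within a narrow band. The log2 fold change was -0.08 (SE 0.06, interval -0.22 to 0.06, adjusted p = 0.312) in the mean of both states, and the interval leaves out a change as large as that of Gsta4 or Gsto1. Zeta class Gstz1 was as even, at 32.7 and 34.2 CPM against 34.9 and 34.0 CPM without TNF-α and 32.7 and 31.5 against 33.7 and 34.6 CPM with TNF-α, with a log2 fold change of 0.07 (interval -0.08 to 0.21) in the mean of both states. Kappa class Gstk1 had 46 to 97 counts per library and a log2 fold change of -0.24 (interval -0.75 to 0.26).

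Neither microsomal enzyme passed in the reported fits. Mgst1 had 56.1 and 78.7 CPM in control KD against 47.1 and 53.6 CPM in GSTM1 KD without TNF-α, and 53.0 and 78.5 against 54.4 and 57.0 CPM with TNF-α. Here control KD replicate 2 stood above all others in both states, and control KD replicate 1 was close to the GSTM1 KD libraries. The log2 fold change of Mgst1 was -0.42 (SE 0.18, adjusted p = 0.181) without TNF-α, -0.26 (SE 0.19, adjusted p = 0.363) with TNF-α and -0.33 (interval -0.69 to 0.03, adjusted p = 0.127) in the mean of both states. With the replicate number as a block Mgst1 passed without TNF-α (-0.40, adjusted p = 0.0141) and in the mean of both states (-0.31, adjusted p = 0.0245). It did not pass with TNF-α (-0.24, adjusted p = 0.21). Without control KD replicate 1 the log2 fold change of Mgst1 was -0.65 without TNF-α and -0.51 with TNF-α. Without control KD replicate 2 it was -0.17 and 0.05. The size in both states thus depended on which control KD library was used, and so did the sign with TNF-α. Mgst3, which acts on leukotriene precursors and lipid peroxides, had 12.9 and 12.9 CPM against 13.4 and 13.9 CPM without TNF-α and 10.8 and 11.97 against 12.3 and 12.2 CPM with TNF-α. Its groups did not overlap in either state, yet the log2 fold change was only 0.08 in each (adjusted p = 0.744 and 0.748).

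**Figure D4:**
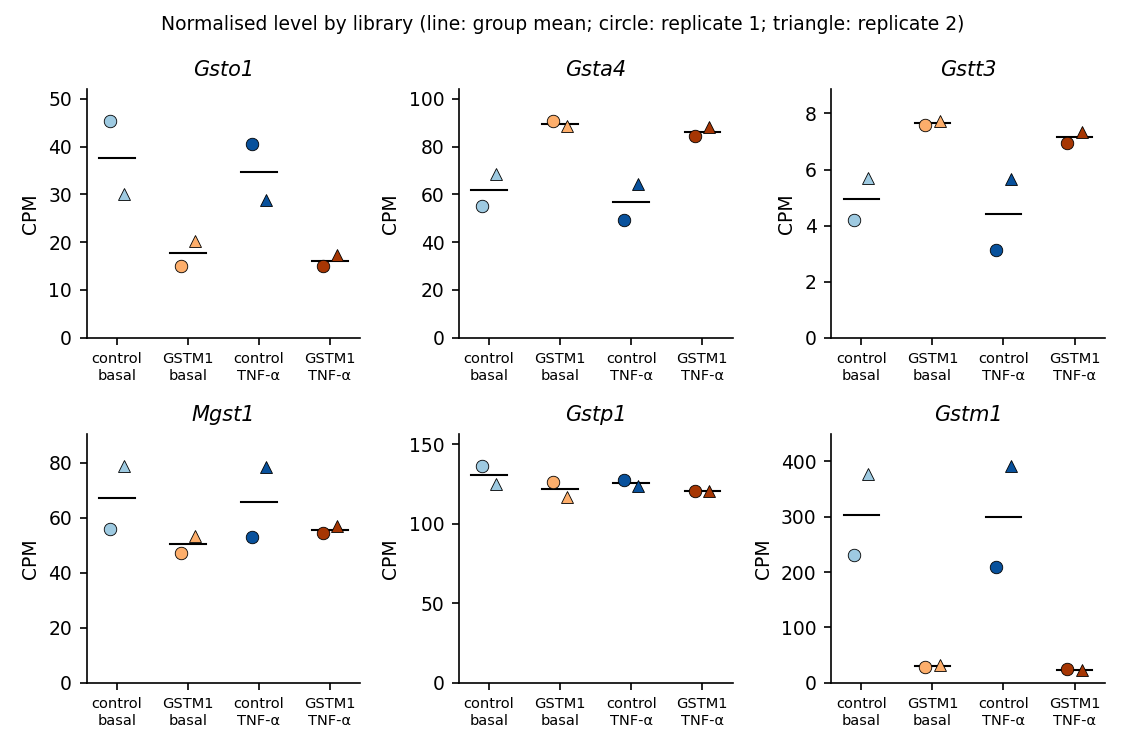
TMM-scaled CPM of 5 members and of Gstm1 in the 8 libraries, with a line at each group mean and axes from 0. Gsto1 was lower and Gsta4 and Gstt3 higher in all GSTM1 KD libraries, and replicate 1 and replicate 2 of control KD stood apart in the same way in both states, with Mgst1 at 56.1 and 78.7 CPM without TNF-α.

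TNF-α changed no member past the threshold. In control KD 0 of 9 tested members passed, against 2.63% of 15332 genes, and in GSTM1 KD 0 of 9, against 2.65% of genes. No member had an unadjusted p under 0.05 in either comparison, against 1920 of 15332 genes in control KD and 1670 in GSTM1 KD. DESeq2 called 0 members as well, against 761 and 647 of 15332 genes. The log2 fold changes ran from -0.26 (Gstt1) to 0.15 (Gstk1) in control KD and from -0.28 (Gstt1) to 0.15 (Mgst1) in GSTM1 KD, and the lowest adjusted p was 0.698 and 0.850, for Mgst3 in both. Mgst3 was also the member whose groups did not overlap in control KD (lower after TNF-α, 1 of 9 members, against 34.5% of genes). In GSTM1 KD the groups did not overlap for 5 of 9 members, Mgst1 higher and Gsta4, Gstt1, Gstt3 and Mgst3 lower, against 44.5% of genes. The narrowest intervals were those of Gstp1 and Gstz1: the log2 fold change of Gstp1 was -0.05 (interval -0.25 to 0.15) in control KD and -0.01 (interval -0.21 to 0.19) in GSTM1 KD, and that of Gstz1 -0.06 (interval -0.27 to 0.15) and -0.01 (interval -0.22 to 0.20). For Gsto1 and Gstt1 they were wide, with lower ends of -0.71 and -1.004 in control KD. The stimulation itself was visible in a MAPEG relative of Mgst1, Ptges, the inducible prostaglandin E synthase, which rose by a log2 fold change of 1.32 (SE 0.22, adjusted p = 0.0268) in control KD and 1.54 (SE 0.25, adjusted p = 0.0219) in GSTM1 KD.

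**Figure D5:**
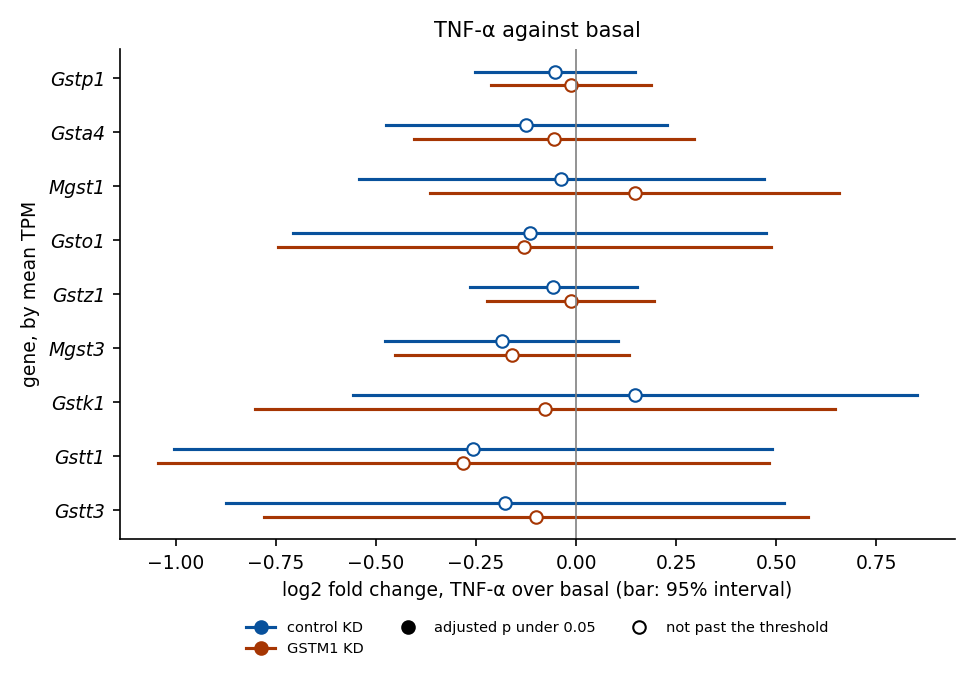
Log2 fold change of the 9 tested members, TNF-α over basal, in control KD and in GSTM1 KD, with 95% intervals from the edgeR fit of all 8 libraries. All points are open, every interval includes 0, and the points lie between -0.28 and 0.15.

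The difference between the responses, GSTM1 KD minus control KD, was tested as an interaction. It passed for 0 of 9 members and for 0% of 15332 genes (0 genes, 295 with an unadjusted p under 0.05, and 27 genes called by DESeq2). No member had an unadjusted p under 0.05, and DESeq2 called 0 members. The members' values lay between -0.23 (Gstk1) and 0.18 (Mgst1), with intervals of -0.43 to 0.56 for Gsta4 and -0.86 to 0.84 for Gsto1, so that a difference between the states in the size of the Gsto1 or Gsta4 change was not detectable at this depth and replication.

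The members did not vary together over the 8 libraries. In log2 CPM, Gsta4 and Gstt3 ran in parallel (Pearson correlation 0.98) and against Gsto1 (-0.94 and -0.89), Mgst1 ran with Gstk1 (0.87), and Gstp1 ran with Gsto1 (0.71) and against Gsta4 (-0.72). These points share the knockdown, the culture and the library scale, and many genes behaved like this: 1592 of 15331 genes had a correlation over 0.9 with Gsta4, 1179 with Gstt3 and 772 with Gsto1. The genes most like Gsta4 were Htra1 (0.997), a serine protease, Slc16a1 (0.996), a lactate transporter, and Cap2 (0.996), and the most opposite was Nifk (-0.995). Htra1, for example, had 98.9 and 152.7 CPM in control KD against 239 and 232 CPM in GSTM1 KD without TNF-α. Those most like Gsto1 were Arrdc3 (0.995), Cdk18 (0.992) and Slc35c2 (0.988), with Igip the most opposite (-0.991), and Arrdc3 had 143 and 97.8 CPM in control KD against 35.9 and 52.35 CPM in GSTM1 KD without TNF-α. Those most like Gstt3 were Ogn (0.996), D3Ertd751e (0.996) and Dctn6 (0.994), with Zscan12 the most opposite (-0.996).

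The nearest protein-coding genes in the GENCODE vM21 annotation were read as a comparison by position. Of 18 neighbours, 8 were tested without TNF-α and with TNF-α, and 1 passed in each (12.5%, against 10.2% and 16.2% of all genes). Ick, a kinase gene 10667 bases before Gsta4, was higher in GSTM1 KD by a log2 fold change of 0.58 (SE 0.13, adjusted p = 0.048) without TNF-α, where Gsta4 was higher by 0.54 without passing. Ddt, encoding D-dopachrome tautomerase 701 bases from Gstt3, was higher by 0.63 (SE 0.16, adjusted p = 0.049) with TNF-α, where Gstt3 was higher by 0.69 without passing. Mif, the related tautomerase on the other side of the theta genes, was lower by a log2 fold change of -0.48 (SE 0.15, adjusted p = 0.043) in the mean of both states, in which 3 of 9 tested neighbours passed (Ick, Ddt and Mif, 33.3% against 39.8% of all genes). The shares of neighbours called lie near or below those of all genes.

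The genes around these enzymes were read from lists of the pathway, whose counts stand against 10.2% of all genes called without TNF-α, 16.2% with TNF-α and 39.8% in the mean of both states. In the mu class 2 of 6 tested genes passed without TNF-α, Gstm1 lower (log2 fold change -3.33, SE 0.26, adjusted p = 0.0132) and Gstm2 higher (1.60, SE 0.30, adjusted p = 0.0345), and with TNF-α only Gstm1 passed (-3.68, SE 0.31, adjusted p = 0.0098). In the mean of both states Gstm2, Gstm5 and Gstm7 were higher and Gstm1 lower. Of the other glutathione S-transferase and MAPEG genes 4 and 3 were tested in the 2 states, and Ptges was lower in both (-1.68, adjusted p = 0.0222, and -1.48, adjusted p = 0.0207). Gsta1, Gsta2, Gsta3, Gstp2, Gstt4, Hpgds, Alox5ap and Ltc4s were too low to be tested. The median log2 fold change of these lists was 0.15 and -0.30 without TNF-α and 0.13 and -0.33 with TNF-α, against -0.0020 and -0.01 over all genes.

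Of 18 tested genes of glutathione supply and recycling, 0 passed without TNF-α (median -0.08), and 2 of 17 passed with TNF-α (median -0.04): Idh1, a source of NADPH, was higher (0.86, SE 0.18, adjusted p = 0.0345) and Gss, glutathione synthetase, lower (-0.47, SE 0.11, adjusted p = 0.0450). The rate-limiting subunits did not pass, with 0.24 for Gclc (adjusted p = 0.255) and 0.21 for Gclm (adjusted p = 0.166) with TNF-α. In the mean of both states 6 of 18 passed, Idh1 and G6pdx higher and Gss, Slc3a2, Lap3 and Me1 lower, and the median was -0.05. Of 8 tested genes of conjugate export and mercapturate formation, 1 passed without TNF-α and 3 with TNF-α (medians -0.09 and -0.42). Ccbl1, a cysteine conjugate lyase, was higher in both states (1.40, adjusted p = 0.0362, and 1.52, adjusted p = 0.0261), and Abcc1, an exporter of glutathione conjugates, was lower with TNF-α (-0.66, adjusted p = 0.0152). Averaged over the states 6 of the 8 passed, 2 higher (Ccbl1 and Abcc5) and 4 lower, among them Abcc1, Acy1 and Acy3, and the median was -0.19. Abcc1 also rose with TNF-α by 0.63 (adjusted p = 0.0076) in control KD and 0.39 (adjusted p = 0.0432) in GSTM1 KD. Of 13 enzymes of reactive aldehydes, which share substrates with Gsta4, 1 passed without TNF-α and 2 with TNF-α (medians -0.09 and -0.01): Akr7a5 was higher in both (0.61, adjusted p = 0.0376, and 0.72, adjusted p = 0.0244) and Aldh1a1 after TNF-α (0.73, adjusted p = 0.0370). Averaged over the states 7 of the 13 passed, Aldh1a1, Aldh7a1, Akr7a5 and Adh5 higher and Aldh2, Akr1b8 and Cbr3 lower, and the median was -0.04. In phenylalanine and tyrosine breakdown, the pathway of Gstz1, 3 of 7 genes were tested and 0 passed in either state by edgeR. In the mean of both states Fah, which follows Gstz1 in that pathway, was lower (-0.77, SE 0.19, adjusted p = 0.0177), as was Qdpr (-0.19, SE 0.06, adjusted p = 0.0328).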

How the data were processed

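Per the labels and the study's methods, the authors made directional libraries, aligned paired reads to GRCm38 with STAR (version 2.5.4b) and estimated abundance by RSEM (version 1.3.0). Expected counts, as deposited, estimate fragments per gene and need not be whole, since RSEM splits reads that fit more than 1 transcript. TPM as deposited scale the same estimates by length to a fixed total per library and served for levels between genes. The deposited effective lengths, the other numeric column used, served as offsets in an alternative. The strand setting of the counting is not given in the sources used here. Expected counts were rounded. edgeR (version 4.0.16, R version 4.3.3) supplied the filterByExpr filter, TMM scaling and the quasi-likelihood F-test (legacy method) with Benjamini-Hochberg adjustment over all genes tested at 0.05. Each knockdown comparison used the 4 libraries of a state, and the mean of both states, the TNF-α responses and their difference were fitted on all 8. DESeq2 (version 1.42.0), limma (version 3.58.1) on log2(TPM + 1) and other settings were alternatives. Procedures were tested on simulated data. With 2 libraries a group the smallest exact permutation p is 0.333, so p-values come only from models across all genes. The totals of 17349682 to 34434615 expected counts per library, with a common biological coefficient of variation of 14.5% to 15.8%, set the precision. The text names all 10 members, Gstm1, genes of the pathway lists past the threshold, the nearest protein-coding gene on each side, and for called members the 3 most alike genes and the most opposite by Pearson correlation of log2 CPM over 8 libraries. A few genes of the lists are counted but not reported here by name. Members and lists were chosen with earlier results of these data known. Sequences were copied from RefSeq (GRCm38.p6), and positions and shared runs come from GENCODE vM21.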

Additional observations from a re-analysis of the deposited data

How the results depend on the processing

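The counts of 0 members for both TNF-α responses and for their difference were the same under every alternative run. At the basal level edgeR called 0 members. There, 2 members (Gsta4 and Gsto1) passed with DESeq2 (2505 of 14032 genes called), with library size only (1654 of 14899) and in the fit of all 8 libraries (2762 of 15332). The newer quasi-likelihood method called 1 member (Gsto1), against 1571 of 14899 genes. Without a filter 3 members passed (Gsta4, Gsto1 and Mgst1), against 3957 of 24716 genes. After TNF-α stimulation 1 member, Gsto1, passed with effective length offsets in place of 2, against 1976 of 14593 genes. When a library was left out, the log2 fold change of Gsta4 ran from 0.39 to 0.69 at the basal level and from 0.40 to 0.79 after TNF-α stimulation. That of Gsto1 ran from -1.37 to -0.78 and from -1.36 to -0.86. When an arm is left with 1 library, that library is assumed to vary like the others. In the mean of both states 4 members passed without a filter, against 7039 of 26474 genes. When a library was left out there, the log2 fold change ran from 0.47 to 0.65 for Gsta4, from -1.26 to -0.94 for Gsto1 and from 0.47 to 0.88 for Gstt3. The adjusted p over the alternatives other than leaving out a library ran from 1.2e-08 to 0.0605 for Gsto1 and from 0.00195 to 0.0615 for Gsta4 at the basal level. The direction of Gsta4, Gsto1 and Gstt3 did not change under any alternative. The sign changed only for members that did not pass in the reported fits: Gstt1 at the basal level stood at 0.0014 with effective length offsets and 0.077 with limma, and when a library was left out the log2 fold change ran from -0.52 to 0.19 for Gstt1 and from -0.37 to 0.13 for Gstk1 at the basal level, and from -0.50 to 0.064 for Gstt1 and from -0.51 to 0.047 for Mgst1 after TNF-α stimulation. The cause was not tested. Over all genes, 1524 calls at the basal level became 3957 without a filter, 4712 with a replicate block and 1 to 5256 when a library was left out, and 2360 calls after TNF-α stimulation became 4540, 4302 and 0 to 5028.

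With the replicate number as a block, 4 members passed at the basal level (Gsta4, Gsto1, Gstt3 and Mgst1), against 4712 of 14899 genes. In these fits 2 members passed after TNF-α stimulation, against 4302 of 14593 genes, and 4 in the mean of both states, against 8017 of 15332 genes. Deviations of same-numbered libraries correlated at 0.283 to 0.790 over genes in all 6 pairs of groups, a hint from the data that the numbers mark something shared. Nothing in the labels says what that is, so the reported fits have no block.

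Gstk1, Gstt1 and Gstt2 had the fewest counts, 0 to 126 per library, and the intervals of Gstk1 and Gstt1 hold both counting error and the spread between replicates.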
